A study of Mus musculus with 10 samples.

Results

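Microglia from adult wild-type mice were profiled in 4 RNA-seq libraries, out of 10 in the series. The 4 were taken by their label, TREM2+/+ with both copies of Trem2 intact. All came from C57BL/6 mice of 3 to 5 months, and libraries 1 and 10 were female and libraries 4 and 7 male. CD11b magnetic beads were used to collect the cells. CD11b is an integrin chain that monocytes, neutrophils and border macrophages also carry. The remaining 6 libraries, 3 heterozygous (TREM2+/-) and 3 knockout (TREM2-/-), shared strain, age and isolation, and entered a single check, the repeat of the sex contrast. No genotype was compared. Whether a library held 1 mouse or a pool is not stated in the labels, so the spread reported is that between libraries and may be partly technical.

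Microglia are the resident macrophages of the brain. They depend on signalling through the receptor Csf1r, survey the tissue with processes guided by nucleotide and chemokine receptors, and degrade what they engulf in lysosomes. Their identity rests on general macrophage transcription factors such as PU.1 and on factors more particular to the brain, among them Sall1, under the influence of transforming growth factor beta.

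Levels are in RPKM, reads per kilobase of gene and megaread of the library, which adjusts for gene length. Levels of different genes can then be set side by side, except where a gene shares sequence with copies or reads low for a reason not tested, as described for some genes. Of 24033 gene names, 19016 had a value above 0 in at least 1 of the 4 libraries and 15295 in all 4. Genes with a mean of at least 1 RPKM numbered 11719 (48.8%), and 408 (1.70%) reached 100 RPKM. Read numbers recovered from the RPKM came to 22.5, 20.47, 18.44 and 45.04 megareads for libraries 1, 4, 7 and 10. Library 10 therefore had the smallest counting error.

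All 4 markers of microglia were abundant, so the data do not go against the label. P2ry12, the receptor for adenosine diphosphate that steers microglial processes, stood at 1666, 2268, 2108 and 1822 RPKM in libraries 1, 4, 7 and 10 and ranked 9 among all names. Csf1r, the receptor for colony stimulating factor 1, stood at 1636, 1485, 1716 and 1624 RPKM and ranked 18. Cx3cr1, the fractalkine receptor, stood at 777, 927, 897 and 806 RPKM. The membrane protein Tmem119 was the lowest of the 4 at 570, 418, 546 and 566 RPKM, and library 4 stood apart from the other 3. The ranges of P2ry12 and Csf1r overlapped, while Cx3cr1 and Tmem119 lay below both and did not overlap each other. Summed over the 4 genes, the level was 4958 ± 277 RPKM (SD, n = 4), or 1.58% of all RPKM in a library. P2ry12 lies on chromosome 3 at 59216271 to 59262985, Cx3cr1 on chromosome 9 at 120048683 to 120068296 and Tmem119 on chromosome 5 at 113793729 to 113800396 (GRCm38.p6, RefSeq).

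A wider list of 25 genes known from resting microglia gave the same picture. All 25 were above 10 RPKM and 18 above 100 RPKM, with a median of 206 RPKM against 0.869 RPKM over all gene names. The list summed to 19605, 20780, 21317 and 20150 RPKM in libraries 1, 4, 7 and 10. Cst3 is a member and its highest. The lowest member, the leukotriene C4 synthase gene Ltc4s, still stood at 43.3 RPKM. This gene was outside the naming rule and was picked after its value was seen.

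A small number of transcripts made up much of the profile. The 10 highest names held 12.99% ± 0.349 of the summed RPKM (SD, n = 4), the 100 highest 32.6% ± 0.715 and the 1000 highest 61.8% ± 0.719. Of the 100 highest names in each library, 84 were common to all 4. Highest was Cst3, which encodes the secreted protease inhibitor cystatin C, at 8778, 8241, 9121 and 8645 RPKM in libraries 1, 4, 7 and 10. The nuclear long noncoding RNA Malat1 followed at 5941 ± 661 RPKM (SD, n = 4), ahead of B2m, the light chain of class I histocompatibility molecules, at 5092 ± 519. Malat1 ran from 5487 RPKM in library 10 to 6898 in library 4. The RNA-binding protein gene Zfp36, whose product destabilises cytokine messages, came next at 4177, 4343, 5133 and 4675 RPKM. Beyond these, the 25 included the actin-sequestering peptide gene Tmsb4x (1686 ± 103 RPKM, SD, n = 4), the beta-actin gene Actb (1077 ± 105), the selenium carrier Sepp1 (1732 ± 195), the matrix protein Sparc (1693 ± 115) and the ferritin heavy chain Fth1 (967 ± 93.7). Ribosomal RNA (Rn45s) and the microRNA name Mir6236 lay among the same ranks but are left out by the naming rule. Both varied more than the 25: Mir6236 ran from 414 RPKM in library 4 to 2101 in library 10, and Rn45s from 1051 to 2209 in the same libraries.

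**Figure D1:**
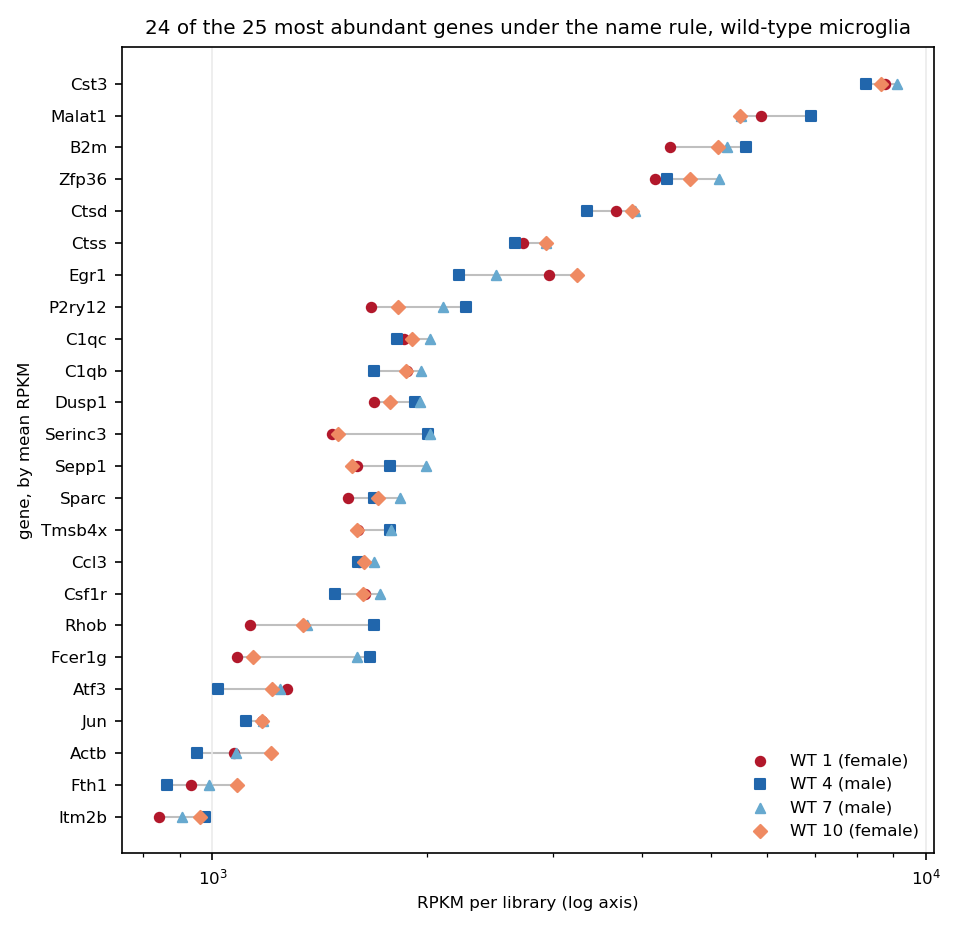
RPKM (log axis) of 24 of the 25 most abundant genes under the naming rule, 1 symbol per wild-type library, with a grey line from the lowest to the highest library. Cst3 lies between 8241 and 9121 RPKM in all 4 libraries, above every other gene shown, and Serinc3 and Fcer1g are spread more widely than Jun and Ccl3.

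The lysosome list took the largest share of any list, in large part through Cst3, whose product is secreted. Cst3 averaged 8696 RPKM of the mean list sum of 23218 RPKM, and the rank depends on its inclusion. The 29 members, which include Cst3 and the membrane protein Laptm5, summed to 22921, 22452, 24148 and 23350 RPKM in libraries 1, 4, 7 and 10, or 7.41% of all RPKM, and 28 of them exceeded 10 RPKM. The aspartic protease Ctsd stood at 3703 ± 253 RPKM (SD, n = 4). The cysteine protease Ctss, which also trims the class II invariant chain, stood at 2812 ± 145.

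Complement genes formed a high and a low set, with 4 of 15 above 10 RPKM. C1qb and C1qc, chains of the recognition molecule of the classical pathway, stood at 1845 ± 117 and 1899 ± 88.5 RPKM (SD, n = 4). C3, the central component, was at 2.54 RPKM on average. C1qa, which encodes the other chain of the same complex, stood at 52.0, 47.7, 47.1 and 58.8 RPKM in libraries 1, 4, 7 and 10, far below its partners in every library. The 3 genes are neighbours on chromosome 4, and C1qa lies at 136895916 to 136898844 (GRCm38.p6, RefSeq). None of the sampled 50-base words of the C1qa transcript occurred in a transcript of a gene elsewhere in the genome, and its GC content was 59.5% against 57.4% and 57.5% for C1qb and C1qc. The cause of the gap was not tested.

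Antigen presentation genes were carried mainly by class I. After B2m, the heavy chain genes H2-K1 and H2-D1 stood at 903 ± 81.8 and 322 ± 83.6 RPKM (SD, n = 4). The class II invariant chain Cd74 stood at 947, 732, 875 and 1097 RPKM in libraries 1, 4, 7 and 10, and the class II chain H2-Ab1 at 231, 161, 230 and 293. Both class II genes were lowest in library 4 and highest in library 10. H2-D1 followed the same order, with 231 RPKM in library 4 and 422 in library 10.

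The receptor lists held 193 genes in 8 classes. Of these, 157 (81.4%) reached 1 RPKM, 110 (57.0%) reached 10 and 40 (20.7%) reached 100, against 48.8%, 21.3% and 1.70% of all gene names. The genes were chosen for their known relevance to myeloid cells, so the excess is a description of the lists.

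Among purinergic receptors, which sense extracellular nucleotides and adenosine, P2ry12 was accompanied by its close relative P2ry13 at 753, 1131, 928 and 820 RPKM in libraries 1, 4, 7 and 10. P2ry6, the receptor for uridine diphosphate, stood at 87.4 ± 5.12 RPKM (SD, n = 4). The ATP-gated channel P2rx7 stood at 51.3 ± 1.28 and the adenosine receptor Adora3 at 21.8 ± 4.33. Only 6 of the 14 genes reached 10 RPKM, so the class was steep: its median was 2.64 RPKM although its highest members were among the most abundant receptors measured.

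Chemoattractant receptors were led by Cx3cr1, followed by the atypical receptor Ccrl2 at 271 ± 46.9 RPKM (SD, n = 4). The receptor of the complement fragment C3a, C3ar1, stood at 187 ± 13.01. C5ar1, which binds the fragment C5a, was at 91.8, 59.7, 74.2 and 81.2 RPKM in libraries 1, 4, 7 and 10. Of the 18 genes, 7 reached 10 RPKM. Ccr2, known from circulating monocytes, stood at 6.54, 6.402, 7.28 and 11.7 RPKM, highest in library 10.

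Cytokine and growth factor receptors were broad rather than steep, with 26 of 33 genes above 10 RPKM. Besides Csf1r, both signalling chains of the transforming growth factor beta receptor were abundant. Tgfbr1 stood at 467, 451, 458 and 475 RPKM in libraries 1, 4, 7 and 10, a coefficient of variation (CV, SD over mean) of 0.0229, and Tgfbr2 at 125, 158, 148 and 126. The interferon gamma receptor chain Ifngr1 stood at 162 ± 9.51 RPKM (SD, n = 4) and the interleukin 6 receptor Il6ra at 139 ± 12.9. Kit and Met, receptors of other lineages in the same list, were under 1 RPKM.

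Pattern recognition receptors were led by Cd180, a Toll-like receptor homologue best known from B cells, at 497, 774, 566 and 585 RPKM in libraries 1, 4, 7 and 10. The endosomal RNA sensors Tlr7 and Tlr13 followed at 227 ± 43.0 and 140 ± 12.0 RPKM (SD, n = 4). Ly96, the co-receptor of Tlr4, stood at 81.5 ± 16.5 and the lipopeptide receptor Tlr2 at 76.7 ± 16.0. Tlr2 was lowest in library 4 (58.1 RPKM) and highest in library 1 (94.97), whereas Cd180, Tlr7 and Ly96 were highest in library 4.

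Fc receptors and receptors with immunoreceptor tyrosine motifs included the 2 signalling adaptors of myeloid cells. Fcer1g, the common gamma chain, stood at 1083, 1661, 1594 and 1141 RPKM in libraries 1, 4, 7 and 10. Libraries 4 and 7 were thus the high ones. Tyrobp, the adaptor that pairs with Trem2, stood at 648, 536, 618 and 686 RPKM. Trem2 itself, the lipid-sensing receptor that the study is about, stood at 170, 185, 237 and 174 RPKM. The orphan receptor-like gene Fcrls stood at 603 ± 103 RPKM (SD, n = 4) and the low-affinity receptor Fcgr3 at 230 ± 21.6. The inhibitory Fc receptor Fcgr2b was at 79.4 ± 2.19. Among the sialic acid binding lectins, Cd33 stood at 501 ± 86.2 and Siglech at 429 ± 64.8. Sirpa, which receives the signal of Cd47, stood at 423 ± 24.4. Laptm5, a lysosomal membrane protein placed in the same list, stood at 689 ± 103.

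Phagocytic and scavenger receptors included the target of the bead isolation. Itgam, which encodes CD11b, stood at 676, 1054, 839 and 892 RPKM in libraries 1, 4, 7 and 10. The late endosomal glycoprotein Cd68 stood at 588 ± 24.7 RPKM (SD, n = 4). Mertk, a kinase that recognises bridging molecules on dying cells, stood at 273 ± 32.9, Havcr2 at 261 ± 11.0 and the integrin chain Itgb5 at 136 ± 16.6. Marco, a scavenger receptor of other tissue macrophages, was listed at 0 in all 4 libraries.

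Other G protein-coupled receptors were headed by the lysophosphatidylserine receptor Gpr34, at 263, 403, 339 and 291 RPKM in libraries 1, 4, 7 and 10. Gpr84, which responds to medium-chain fatty acids, stood at 187 ± 36.1 RPKM (SD, n = 4), and the oxysterol receptor Gpr183 at 158 ± 25.4. Emr1, the older name of Adgre1, encodes the macrophage antigen F4/80 and stood at 122 ± 10.2. Rgs10, a regulator of G protein signalling kept in this list, stood at 313 ± 35.3. Only 18 of the 41 genes in the class reached 10 RPKM, and no member of the ion channel list reached 100 RPKM, where the chloride channel protein Clic1 was highest at 50.6 ± 5.07.

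**Figure D2:**
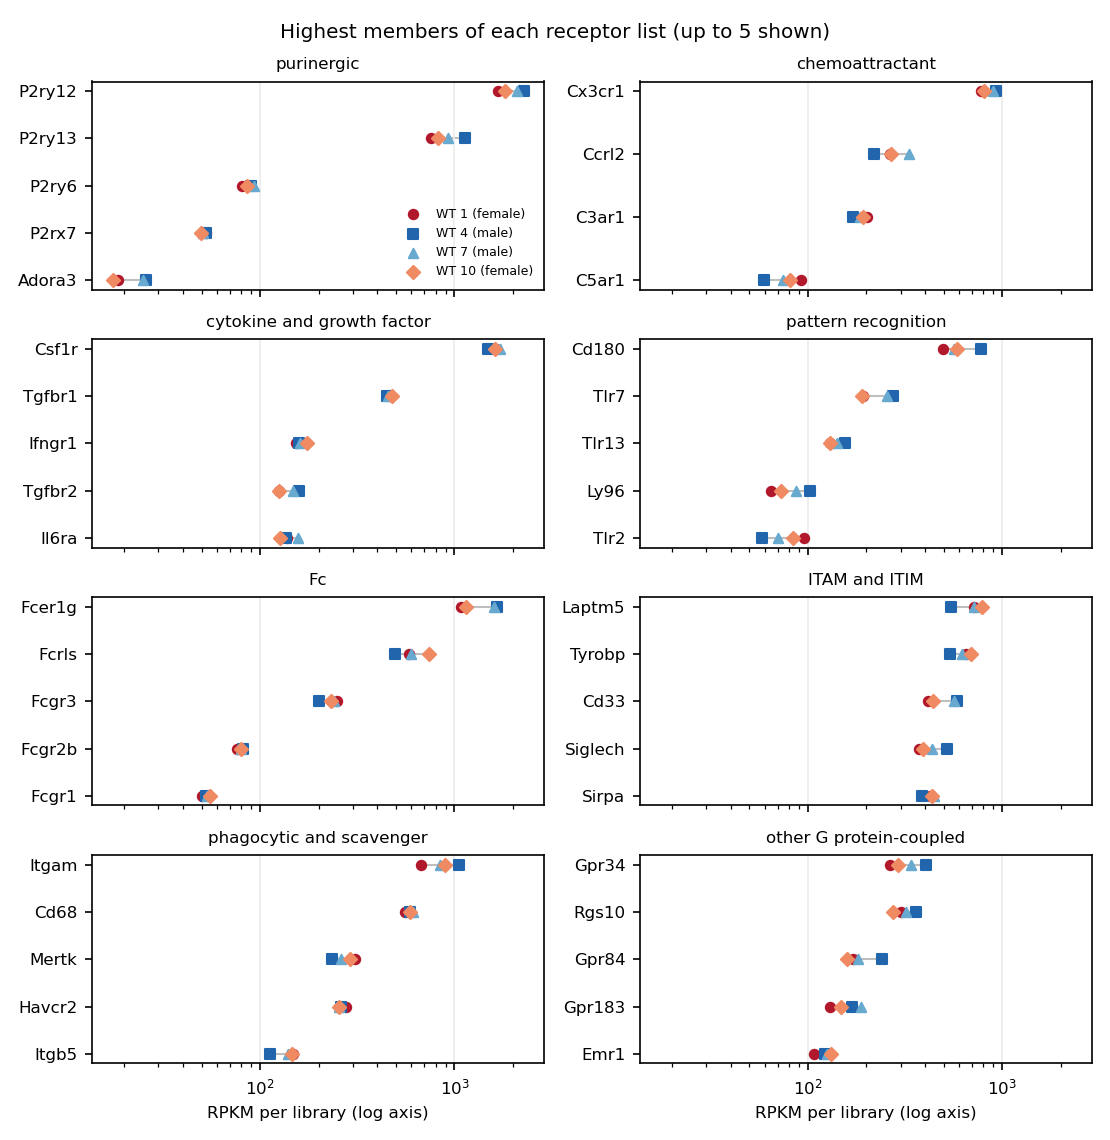
RPKM (log axis) of up to 5 of the highest genes in each of 8 receptor lists, 1 symbol per wild-type library. P2ry12, Csf1r and Fcer1g exceed 1000 RPKM in each of the 4 libraries, and libraries of the same gene lie close together compared with the distance between genes.

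Transcription factors of the lineage, signalling and activation lists numbered 118. Of these, 95 (80.5%) reached 10 RPKM and 24 (20.3%) reached 100, against 21.3% and 1.70% of all gene names. As for the receptors, the excess is a description of the lists. In the lineage list, Maf, a factor of macrophages, stood at 146, 251.5, 216 and 153 RPKM in libraries 1, 4, 7 and 10. Libraries 4 and 7 were the high ones. Mef2a stood at 264 ± 8.63 RPKM (SD, n = 4), Ikzf1 at 181 ± 13.97 and Sall1, known from microglia among macrophages, at 181 ± 8.66. Sall1 differed little between libraries, from 173 to 193 RPKM. Spi1, which encodes PU.1, and its partner Irf8 were lower than these at 86.0 ± 10.1 and 94.1 ± 10.6. Both are outside the naming rule and were picked as textbook factors after their values were seen.

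Among factors that respond to signals, Klf6 stood at 724 ± 55.1 RPKM (SD, n = 4). Nfe2l2, the regulator of antioxidant genes, stood at 249 ± 42.9, Skil, an antagonist of Smad proteins, at 219 ± 15.4 and the Krüppel-like factors Klf2 and Klf3 at 207 ± 16.5 and 191 ± 44.7. Factors that define other lineages were rare. Of 34 such genes, 8 reached 1 RPKM, 1 reached 10 and the median was 0.163 RPKM. Erg, a factor of endothelium, was the highest at 11.0, 17.3, 14.8 and 7.02 RPKM in libraries 1, 4, 7 and 10. Pax5, the B cell factor, was listed at 0.

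Immediate early genes, which cells transcribe soon after a stimulus without new protein synthesis, were abundant in every library. All 24 of the list exceeded 10 RPKM and 20 exceeded 100 RPKM, against 21.3% and 1.70% of all gene names. The list median was 340 RPKM. They summed to 17331, 16819, 17995 and 18619 RPKM in libraries 1, 4, 7 and 10, or 5.64% of all RPKM. After Zfp36, the zinc finger factor Egr1 stood at 2968, 2217, 2501 and 3246 RPKM and the phosphatase gene Dusp1, which switches off stress kinases, at 1687, 1924, 1956 and 1776. The small GTPase gene Rhob stood at 1377 ± 228 RPKM (SD, n = 4) and the stress factor Atf3 at 1187 ± 114. Jun was nearly flat at 1173, 1116, 1178 and 1175 RPKM, with library 4 lowest. Fos, its partner in the AP-1 factor, stood at 505, 303, 355 and 505 RPKM, lowest in library 4.

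Promoters of 5 of these genes are shown because each holds an element that was searched for. Egr2 and Btg2 were picked for that match, and of the several start sites of Egr2 1 is used. Stretches of 100 bases upstream of a RefSeq start site were read from the table of GRCm38.p6 promoters. Capitals mark a serum response element in Zfp36 and Egr2, the cyclic AMP response element TGACGTCA in Dusp1 and Btg2, and a TATA box (TATAAA) in Fos.
Zfp36, chr7:28379232-28379331, minus strand: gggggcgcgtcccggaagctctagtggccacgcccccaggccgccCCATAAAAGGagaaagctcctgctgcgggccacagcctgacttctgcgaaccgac
Egr2, chr10:67537752-67537851, plus strand: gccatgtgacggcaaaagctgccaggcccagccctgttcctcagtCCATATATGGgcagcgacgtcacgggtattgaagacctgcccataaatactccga
Dusp1, chr17:26508563-26508662, minus strand: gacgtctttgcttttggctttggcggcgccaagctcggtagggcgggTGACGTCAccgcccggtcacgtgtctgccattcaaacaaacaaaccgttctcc
Btg2, chr1:134079269-134079368, minus strand: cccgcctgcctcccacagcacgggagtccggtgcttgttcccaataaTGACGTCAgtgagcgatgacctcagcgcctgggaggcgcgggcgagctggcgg
Fos, chr12:85473790-85473889, plus strand: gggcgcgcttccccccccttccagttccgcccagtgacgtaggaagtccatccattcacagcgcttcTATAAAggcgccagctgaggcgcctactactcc

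Counted from the start site, the motif began at -58 in Zfp36, -72 in Egr2, -143 in Dusp1, -166 in Btg2 and -33 in Fos. Of the 21 immediate early genes with a promoter in the table, 2 held TGACGTCA within 250 bases of the start, against 404 of 17837 genes (2.27%). A serum response element lay in 2 of the 21, against 1.59% of all genes, and TATAAA in 2, against 8.78%. The AP-1 motif TGAGTCA was in none of the 21, against 4.94% of all genes. Motifs were read on both strands, except TATAAA on the strand of the gene, and none was searched beyond 250 bases. A gene counted if any of its start sites matched, so genes with more start sites had more chances. Among genes with a promoter in the table, TATAAA was found upstream of 20.3% of the 3418 listed at 0 and 4.62% of the 3791 at 10 to 100 RPKM. It was found in 8.92% of the 314 at 100 RPKM or more and in 13 of the 100 highest under the naming rule. TGACGTCA was found in 0.644%, 3.93%, 3.19% and 3 of the same 4 sets, whose median GC content upstream was 43.2%, 60.8%, 59.6% and 59%. The PU.1 motif GAGGAAGT was found in 7 of the 100 highest genes in 4.14% of those at 100 RPKM or more and in 2.66% of all genes. It was in none of 17 genes of the resting microglia list, 21 immediate early genes, 29 lineage factors and 2 microglia markers. It was in 2 of 24 genes of the list with immunoreceptor tyrosine motifs and in 1 of 22 lysosomal genes. At a share of 2.66%, sets this small hold few or no matches, so none of these counts sets a list apart. A match is a run of letters and not evidence of binding.

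Cytokine and chemokine genes were headed by Ccl3, a chemoattractant of leukocytes, at 1604, 1599, 1684 and 1633 RPKM in libraries 1, 4, 7 and 10. Its CV of 0.0240 compares with a median of 0.103 over all genes above 100 RPKM. Its neighbour Ccl4 stood at 234, 381, 316 and 258 RPKM, highest in library 4. Il1a stood at 383 ± 34.8 RPKM (SD, n = 4), the progranulin gene Grn at 391 ± 75.7 and Ccl12 at 210 ± 22.5. Of 32 genes in the list, 21 exceeded 10 RPKM.

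Genes known from disease-associated and interferon-responsive states were unevenly represented. In the disease-associated list, 14 of 20 genes exceeded 10 RPKM, against 21.3% of all gene names. The list was led by genes that are abundant in resting microglia too: Ctsd, Fth1, Tyrobp, the cysteine protease Ctsb (372 ± 45.7 RPKM, SD, n = 4) and Trem2. Interferon-induced genes were low, with a list median of 5.44 RPKM. The chemokine Cxcl10 was the exception at 121, 72.6, 95.1 and 158 RPKM in libraries 1, 4, 7 and 10. The list sum was 307, 243, 265 and 422 RPKM, with library 10 highest. In the lipid list, the lipoprotein gene Apoe stood at 162, 70.1, 113 and 172 RPKM and the receptor Lrp1 at 105 ± 14.7 RPKM (SD, n = 4). Apoe was lowest in library 4 and highest in library 10.

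Several genes that most cells express strongly were listed at low levels. The glycolytic enzyme gene Gapdh stood at 6.2004, 5.87, 4.92 and 6.12 RPKM in libraries 1, 4, 7 and 10, Pgk1 at 2.58 ± 0.272 (SD, n = 4) and Eno1 at 0.0409 ± 0.0175. The actin gene Actg1 stood at 4.18 ± 0.849 against 1077 for Actb. Within the transcript of Gapdh, 79.6% of sampled 50-base words also occurred in genes elsewhere, 191 of them annotated pseudogenes. The corresponding share was 69.4% for Eno1, 63.9% for Pgk1 and 53.8% for Actg1. Ribosomal protein genes had a median of 15.9 RPKM. Not every such gene was low. Ftl1, the ferritin light chain, had 76.4% of its words elsewhere and stood at 291 ± 52.1 RPKM, and Hspa1a, a heat shock protein with a near-identical copy, stood at 648. Over all names with a value above 0, the median was 2.52 RPKM for 14294 genes with no such words and 0.611 RPKM for 320 genes with 50% or more. No label or file header says how the authors treated reads that map to several places, so levels of genes with close copies are uncertain, and the part of copies in these low levels was not tested.

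Markers of other cell types were measured with 15 lists holding 158 genes, which together took 0.990% of summed RPKM against 1.58% for the 4 microglia markers alone. In a bulk sample, fewer cells of a type and less RNA per cell cannot be told apart. The highest sum belonged to choroid plexus and ependyma, at 1365, 945, 819 and 1248 RPKM in libraries 1, 4, 7 and 10. It rested on Ttr, the carrier of thyroid hormone secreted by choroid plexus, at 1020, 680, 599 and 952 RPKM, which ranked 35 among all names. Enpp2, which makes lysophosphatidic acid, stood at 221 ± 43.2 RPKM (SD, n = 4), the potassium channel Kcnj13 at 31.05 ± 1.58 and Kl at 10.1 ± 3.47. Of the 11 genes in the list, 8 reached 1 RPKM, and 3 markers of motile cilia or ependyma (Foxj1, Ccdc153 and Tmem212) did not.

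Endothelial markers summed to 652, 614, 752 and 523 RPKM in libraries 1, 4, 7 and 10, and all 13 reached 1 RPKM. The highest were Bsg (255 ± 24.8 RPKM, SD, n = 4) and the glucose transporter Slc2a1 (102 ± 19.7), which other cells also express. The blood-brain barrier transporter Slco1a4 stood at 50.05, 65.0, 77.5 and 36.0 RPKM, highest in library 7 and lowest in library 10. The tight junction gene Cldn5 stood at 8.21 RPKM on average. Mural markers were lower. Rgs5, a marker of pericytes, stood at 27.3 ± 1.95 RPKM, and the smooth muscle genes Acta2 and Myh11 stood at 15.8, 9.71, 18.3 and 34.0 and at 6.65, 6.94, 7.401 and 14.2 RPKM, both highest in library 10.

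Myeloid cells other than microglia also carry CD11b. The monocyte list summed to 576, 306, 495 and 621 RPKM in libraries 1, 4, 7 and 10, mainly through Lyz2, the lysozyme of macrophages, at 351, 160, 278 and 365. Of its 12 members, Ccr2, Vim and Nr4a1 were also in lists of microglial function, and Ly6c2, a surface marker of inflammatory monocytes, was at 0.759 RPKM. Neutrophil markers summed to 104, 198, 224 and 213 RPKM, with library 1 lowest. The calprotectin genes S100a9 and S100a8 stood at 34.6, 75.6, 76.9 and 81.8 and at 30.1, 57.7, 69.9 and 56.1 RPKM, and 9 of the 12 neutrophil genes reached 1 RPKM. Border macrophage markers summed to 207, 130, 169 and 204 RPKM. Of the 11 genes in that list, Mrc1, Cd163 and Stab1 were also in lists of microglial function. Stab1 (55.1 RPKM on average) and Mrc1 were its highest members, so the sum is not particular to border macrophages. The mannose receptor Mrc1 stood at 56.5, 36.1, 45.9 and 60.7 RPKM and the hyaluronan receptor Lyve1 at 16.4 ± 0.498 RPKM (SD, n = 4).

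Markers of neurons and glia were near the floor with a few exceptions. Neuronal genes summed to between 10.7 and 17.9 RPKM over 15 genes, with Camk2a highest at 6.64 ± 1.60 RPKM (SD, n = 4). The oligodendrocyte sum of 266 ± 43.0 was carried by the iron carrier Trf, at 264, 173, 260 and 250 RPKM in libraries 1, 4, 7 and 10, whereas the myelin gene Mbp stood at 5.39. Astrocyte genes summed to 59.6 ± 11.5, led by the glutamate transporter Slc1a3 at 25.9 ± 3.502. The 8 precursor genes of oligodendrocytes were all under 1 RPKM. The B cell list and the T and NK cell list summed to 11.0 ± 0.779 and 11.5 ± 6.46. The T and NK sum was highest in library 10 (20.8 RPKM), mainly through Ccl5 at 14.2. Ccl5 was also in a list that is not of another cell type, and Cd4, the next member, averaged 3.07 RPKM. The haemoglobin genes Hba-a1 and Hbb-bs were listed at 0 in every library. Their transcripts share 59.6% and 68.6% of sampled words with another gene, so a listed 0 does not show absence. Dividing cells were represented by Mki67 at 5.29 RPKM on average.

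**Figure D3:**
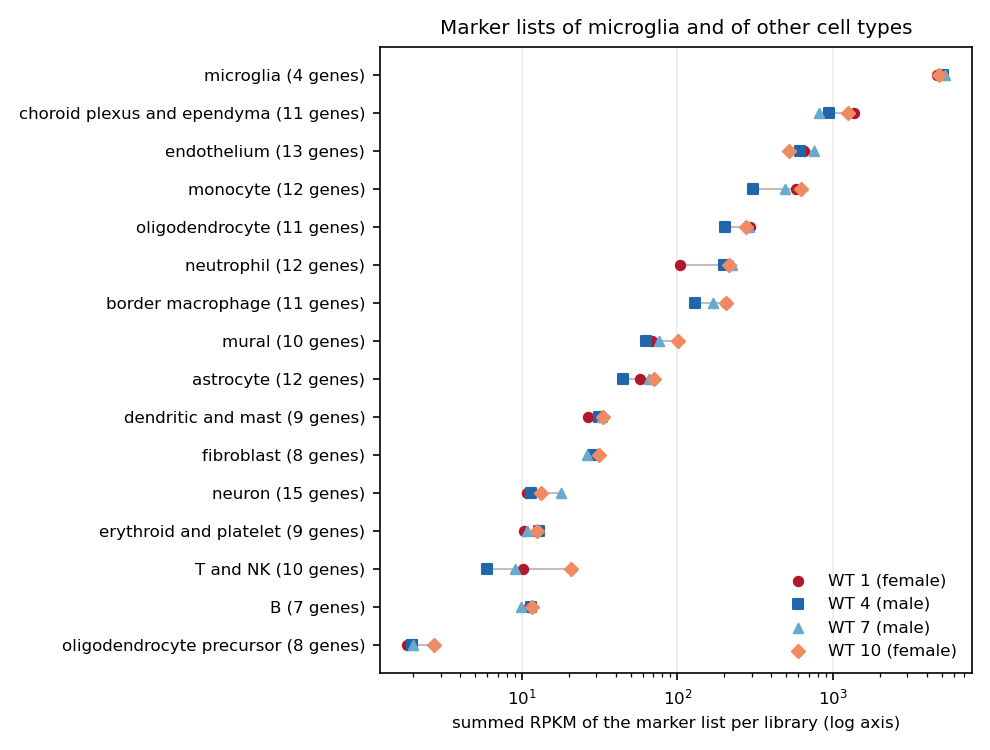
Summed RPKM (log axis) of marker lists for microglia and 15 other cell types, 1 symbol per wild-type library, with the number of genes measured in brackets. The microglia sum lies between 4649 and 5267 RPKM in the 4 libraries, above the 819 to 1365 RPKM of choroid plexus and ependyma, and library 4 has the lowest sum for monocytes, oligodendrocytes and astrocytes.

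The 4 libraries resembled each other closely across genes. Pearson correlations of log2(RPKM + 0.5) over 19016 genes lay between 0.977 and 0.990 for the 6 pairs, and the median was 0.981. These are correlations across genes within pairs of libraries, whose genes are not independent. The 2 female libraries gave the highest value, 0.990, and the 2 male libraries 0.979, below the 0.984 of library 7 with either female library. Library 4 took part in the 3 lowest pairs. Among genes of at least 1 RPKM, 418 lay more than 2-fold from the median of the other 3 libraries in library 4, against 151, 217 and 140 in libraries 1, 7 and 10. Of the 418, 281 were lower and 137 higher. Library 4 also listed the fewest genes above 0, 16300 against 16743 to 18039, although its 20.47 megareads were not the fewest.

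Most genes varied by little, and by more than counting alone would give. Over the 11719 genes of at least 1 RPKM, the median CV was 0.151, while the median CV expected from read counts was 0.0449. For 78.8% of genes the CV exceeded 2 times that value. The median CV was 0.238 at 1 to 5 RPKM, 0.133 at 5 to 20, 0.0965 at 20 to 100 and 0.103 above 100 RPKM. It was thus smaller at higher levels up to 100 RPKM, and no smaller beyond. Genes with a CV over 0.5 numbered 440 (3.76%), and 172 of them carried microRNA or small RNA names, which are short and have few reads. In 218 of the 440, library 4 was the one farthest from the rest. With genes in 4 equal classes by the GC content of the transcript, the median CV was 0.129 in the class of lowest and 0.184 in that of highest GC, and the median level of the same classes was 10.02 and 5.86 RPKM.

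The most variable genes under the naming rule, at 5 RPKM or more, were led by the sex-linked Kdm5d, Xist, Ddx3y and Eif2s3y, described below. Next was Ccl5, a chemokine of T and natural killer cells, with a CV of 0.797. Hint3, a nucleotide hydrolase, stood at 4.40, 14.6, 5.14 and 3.09 RPKM in libraries 1, 4, 7 and 10, and the peptide transporter Slc15a2 at 11.7, 3.95, 2.89 and 4.67. Eid3 stood at 24.7, 7.52, 10.1 and 12.6 RPKM, and Mgl2, a lectin of macrophages and dendritic cells, at 5.73, 2.39, 3.63 and 8.64. Each thus had its own high library: 4 for Hint3, 1 for Slc15a2 and Eid3, and 10 for Ccl5, Mgl2 and Acta2. The steadiest genes included Ankle2 (29.3 ± 0.158 RPKM, SD, n = 4), Prrc2c (106 ± 0.900), the translation factor Eif4g2 (226 ± 2.36), the actin-severing protein Dstn (33.9 ± 0.368) and the calcium pump Atp2c1 (61.9 ± 0.693). The CV of Ankle2, 0.00539, was below the 0.0166 that counting gives, as can happen for the lowest of 6956 genes.

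**Figure D4:**
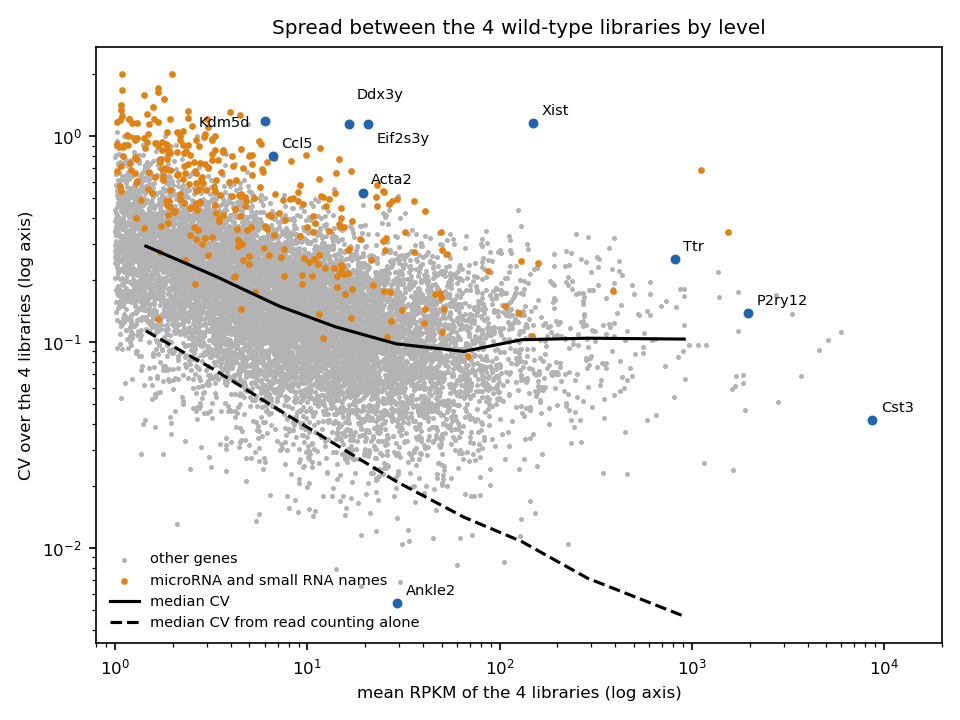
CV over the 4 wild-type libraries (log axis) against mean RPKM (log axis) for the 11719 genes of at least 1 RPKM, with the median CV (solid line) and the median CV from read counting (dashed line). The median levels off near 0.1 above 20 RPKM while the counting line continues down, and microRNA and small RNA names lie toward the top.

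Sex was the one labelled difference among the 4 libraries and was tested with limma on log2(RPKM + 0.5) in 2 female against 2 male libraries. Of 13221 genes tested, 6 were called at an adjusted p under 0.05 (0.0454%), 2 higher in females and 4 higher in males. An unadjusted p under 0.05 was reached by 1628 genes (12.3%). With 2 against 2, an exact permutation test of a single gene cannot go below p = 0.333. Xist, the noncoding RNA that silences the inactive X chromosome, was at 278 and 320 RPKM in female libraries 1 and 10 and at 0.738 and 0.674 in male libraries 4 and 7 (log2 difference 7.95, SE 0.12, limma adjusted p = 2.04e-05).

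All 4 genes of the Y chromosome list were higher in males. Ddx3y, an RNA helicase, stood at 30.98 and 34.4 RPKM in males and at 0.220 and 0.0669 in females. Eif2s3y, a translation initiation factor subunit, stood at 39.2 and 42.9 in males and at 0.376 and 0.0751 in females. The histone demethylase Kdm5d and the demethylase homologue Uty were at 14.1 and 9.90 and at 9.84 and 9.74 RPKM in males, and below 0.1 RPKM in females. The limma adjusted p lay between 0.00168 and 0.00928 for these 4 genes. Thus each library matched its sex label.

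The X-linked partners of these genes differed less. Of the 6 X-linked genes of the list that were tested, Xist was the one called. With limma-voom on recovered reads, Ddx3x was called too. Ddx3x, which escapes X inactivation, stood at 316 and 331 RPKM in females and at 210 and 206 in males, without overlap (log2 difference 0.64, SE 0.08, limma adjusted p = 0.228). Kdm6a stood at 46.9 and 44.2 RPKM in females and at 34.6 and 33.3 in males (log2 difference 0.42, limma adjusted p = 0.314).

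The same contrast was fitted in the 6 heterozygous and knockout libraries, 3 of each sex, with genotype as a term. Of 13655 genes, 5 were called (0.0366%), namely Xist, higher in females, and the 4 Y-linked genes, higher in males. An unadjusted p under 0.05 was reached by 1277 genes (9.35%). The log2 difference of Xist was 8.28 there and those of the Y-linked genes lay between -5.67 and -4.10.

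Many other genes separated the sexes of these 4 libraries without being called. The 2 female and 2 male values did not overlap for 6129 of the 13221 genes (46.4%), the 6 called genes included. Of the 13221, 3752 (28.4%) were higher in both females and 2377 (18%) in both males. For values in random order, 2 against 2 do not overlap with a probability of 0.333. Such a separation is therefore not a result about a single gene. Among the genes described above, 6 were picked after their values were seen. Fcer1g had a log2 difference, female minus male, of -0.55 in wild type and 0.04 in the other 6 libraries. That of Gpr34 was -0.42 and 0.39, that of P2ry12 -0.33 and 0.26, and that of Maf -0.64 and -0.23. The difference of Fos was 0.62 and -0.51, and that of Ttr 0.63 and -0.30. The direction thus turned for each of these 6 genes except Maf, and none passed the test in either set (limma adjusted p from 0.281 to 0.929).

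The sixth call in wild type was the microRNA gene Mir24-2, whose hairpin lies on chromosome 8 at 84208815 to 84208921 (GRCm38.p6, RefSeq). It stood at 25.3 and 23.4 RPKM in the female libraries and at 5.02 and 4.56 in the male ones (log2 difference 2.23, SE 0.14, limma adjusted p = 0.00928). These values rest on 61 and 113 reads in females and 11 and 9 in males. In the other 6 libraries the difference was -0.30 (limma adjusted p = 0.675), and all 6, both sexes, stood between 15.8 and 33.4 RPKM. The low values were thus those of wild-type libraries 4 and 7. The difference between the 2 sets of libraries was not tested. The hairpin of Mir24-2 lies with those of Mir23a and Mir27a within 404 bases, which were added after their values were seen. Mir23a was at 9.47 and 10.9 RPKM in wild-type females and at 0.650 and 1.44 in males (limma adjusted p = 0.166), on 1 to 37 reads. Mir27a was at 7.14 and 12.0 in females and at 1.12 and 4.36 in males (limma adjusted p = 0.338). The main mature products of the 3 hairpins are shown with the seed, bases 2 to 8, in capitals. Their seeds differ, and the libraries were not made to count mature microRNAs.
miR-24-3p: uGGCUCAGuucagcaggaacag
miR-23a-3p: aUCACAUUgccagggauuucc
miR-27a-3p: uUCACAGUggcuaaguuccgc

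**Figure D5:**
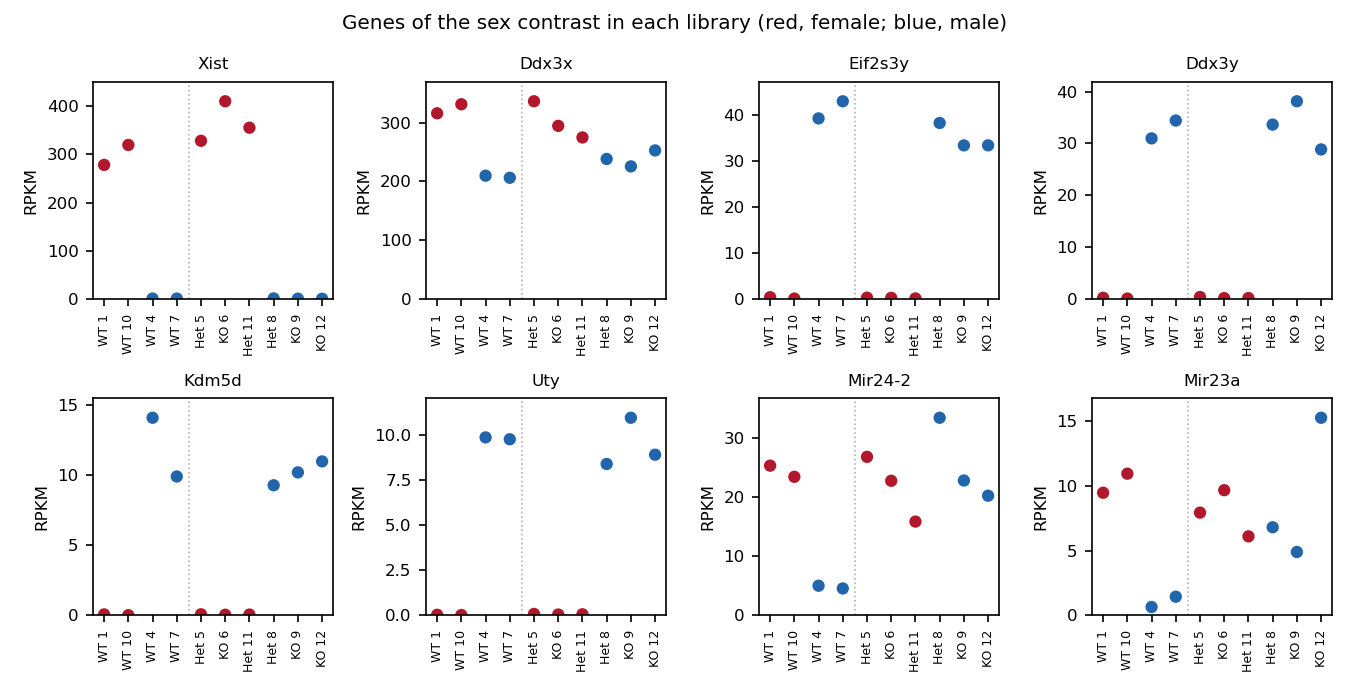
RPKM per library (linear axes from 0) of 8 genes, with wild-type libraries left of the dotted line and heterozygous and knockout libraries right of it, females in red and males in blue. Xist and the Y-linked genes separate the sexes on both sides of the line, while Mir24-2 is lowest in the 2 wild-type male libraries, at 5.02 and 4.56 RPKM.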

How the data were processed

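RNA was extracted with RNeasy from CD11b-selected cells, amplified with the Ovation RNA-seq system and sequenced on a HiSeq4000, per the labels' protocols. The authors deposited 1 table of RPKM values per library. Per the submitters' processing notes, tools included STAR, HTSeq, edgeR and limma and the genome was mm10, all without versions. Each table held 24060 gene names, of which 27 had become dates and were not used.

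From these values, whole reads were recovered for 99.82% of the 19983 genes above 0 in any library (within 0.005 reads, plus a relative tolerance of 2e-08). Levels are means ± SD over 4 libraries. The precision of a level depends on the 18.44 to 45.04 megareads per library, and the counting CV covers counting error only. The sex contrast used limma-trend (limma 3.58.1, R 4.3.3) on log2(RPKM + 0.5) for genes of at least 0.5 RPKM in 2 libraries, with Benjamini-Hochberg adjustment over all genes tested. A fold change on that scale understates the change of low genes. Its p-values reflect how these libraries vary, which may be technical. On simulated data it found 200 of 200 genes changed 4-fold among 13167 and made 36 false calls, all 36 with a mean under 20 reads. With a minimum of 20 reads it found 199 of 199 among 12574, with 10 false calls. The changed genes were drawn from those at 5 RPKM or more. Every gene was given the same dispersion and no library a shift of its own. The real libraries differ in both respects, so these counts do not carry over to them. Other steps ran in Python 3.11.15.

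Gene lists (44, with 761 of 764 genes found, 6 under older names, and Ighm, Ly6g and Trbc2 not matched) and the naming rule were chosen with earlier results of these data known. Counts of list genes at 1, 10 and 100 RPKM are to be read beside the 48.8%, 21.3% and 1.70% of all gene names. The rule names the 25 genes of highest mean (without mitochondrial, ribosomal protein, predicted, clone, small RNA and microRNA names), the 5 highest of each list, the 4 markers, the 10 highest and lowest CVs at 5 RPKM or more, and the called genes of the sex contrast. Other genes named with values (such as C3, Kit, Met, Foxj1, Ccdc153, Tmem212, Cldn5, Ly6c2, Hspa1a, Gapdh, Pgk1, Eno1 and Actg1) were picked after their values were seen. A few genes that the rule would name are not reported here. Shared sequence was measured in 50-base words, 1 in 8 sampled, of GENCODE M21 transcripts. Promoters, microRNAs and positions of genes are from RefSeq. Alternatives were other pseudocounts, filters, scalings, models and leaving out each library.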

Additional observations from a re-analysis of the deposited data

Results flagged for a closer look

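Dixon's ratio, the gap of the highest or lowest library to its nearest neighbour divided by the whole range, was computed for 268 sets of 4 values and exceeded its 95% critical value in 14 of them (5.22%), and chance gives about 1 in 20. None of the 44 list sums was among them. Library 4 stood apart in 5 genes, of which Ankle2 varied by less than counting alone gives. Kcnj2, an inward rectifier potassium channel, was highest there at 41.25 RPKM (ratio 0.948), and Jun (1116 RPKM, 0.925), Ankle2 (29.1 RPKM, 0.888), Tmem119 (417.7 RPKM, 0.843) and Trf (173.3 RPKM, 0.84) were lowest there. Library 10 was highest for the smooth muscle myosin Myh11 (14.23 RPKM, 0.901), the replication helicase subunit Mcm2 (3.789 RPKM, 0.847) and the monocyte receptor Ccr2 (11.65 RPKM, 0.834). It was also highest in reads recovered, at 45.04 megareads (0.847).

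Library 1 was lowest for the neutrophil gene S100a9 (34.64 RPKM, 0.869) and the lectin Cd209a (21.77 RPKM, 0.851). It was highest for the platelet integrin Itga2b (0.3745 RPKM, 0.884), which is close to 0 in every library. Library 7 was highest for the oxidase subunit Ncf1 (161.8 RPKM, 0.875) and lowest for the replication clamp Pcna (40.63 RPKM, 0.871).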

How the results depend on the processing

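Of 58 alternatives to the main values and counts, 45 stayed within 1.5 times the main count or, for other values, within 1 SD, and 13 moved further. These counts include settings without 1 library. For the sum of the 4 markers such a setting could not move further, so it does not show stability. In the wild-type sex contrast it left 1 library of a sex. The 43 list sums moved by at most 1.28% under another scaling. Leaving out a library, which cannot move a mean of 4 by more than 1 SD, moved the Y-linked sum by up to 34% and, outside the sex-linked lists, the T and NK sum by up to 27% (without WT 10). Without a filter on low values the sex contrast of wild-type libraries called 2 genes. Leaving out a wild-type library left 1 library of its sex, so no count of calls is given. Without WT 4 or WT 7, the 4 Y-linked genes no longer passed the filter on low values and were not tested. There the log2 difference was 7.99 and 7.915 for Xist and 2.30 and 2.17 for Mir24-2. In the heterozygous and knockout libraries leaving 1 out gave 5 to 11 calls, with 11 without Het 8. Calls are compared here only between settings that keep every wild-type library, so the fits without WT 4 or WT 7 do not back the call of Mir24-2. Among those settings, Mir24-2 lost its call without the filter, with voom (which called Ddx3x) and with all 10 libraries. Eif2s3y, Kdm5d and Uty lost theirs without the filter, and no named gene changed direction. A minimum of 20 reads, chosen after seeing the data, gave 7 calls, with Mir24-2 among them. The 100 highest names held 24.6% of reads, against their 32.6% of RPKM. The median correlation was 0.969 with a pseudocount of 0.1, 0.967 without genes under 1 RPKM and 0.967 as Spearman's rho. Genes with a CV over 0.5 numbered 45 at 5 RPKM or more, 892 at 0.5 RPKM or more and 268 without small RNA names, the last chosen after seeing the data. Leaving out a library gave 310 to 573, with 310 without WT 4. On a TPM scale, which divides by the summed RPKM of the library and rescales, the 4 markers summed to 15814. That shift is a change of unit, and the CV of the sum was 0.0540 against 0.0559 in RPKM. The cause of the other shifts was not tested. No paired analysis was possible because the library numbers are not shared between groups or sexes.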

Other observations

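Some gene groups of general cell function complete the profile. All 28 cytoskeletal genes reached 1 RPKM and 11 reached 100. Moesin (Msn), which links actin to the membrane, stood at 421 RPKM on average. Marcks, an actin-binding substrate of protein kinase C, stood at 278, 562, 414 and 322 RPKM in libraries 1, 4, 7 and 10, highest in library 4. Iron and redox genes were also well represented, with 19 of 20 above 10 RPKM, among them Txnip, a thioredoxin inhibitor (334 RPKM on average), and Hmox1, which degrades haem (270 RPKM). Of 21 glycolytic genes, 10 exceeded 10 RPKM, led by the lactate dehydrogenase Ldhb (112 RPKM) and the glucose transporter Slc2a1 (102 RPKM). The fructose transporter Slc2a5 stood at 65.9 RPKM and the hexokinase Hk2 at 61.9 RPKM. Among lipid genes, the cholesterol exporter Abca1 stood at 81.6 RPKM and the lysosomal lipase Lipa at 76.6 RPKM. Cell cycle genes were low, with 1 of 13 above 10 RPKM.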
